A study of Mus musculus with 34 samples.

Results

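The comparison described here sets the H3K4me3 columns labelled KDM5_KD_D0 against those labelled Control_D2, each with 2 libraries, so 4 of the 34 samples of the series, over all 10702 promoter peaks of the deposited table. The members were chosen by the names of the columns. As labelled, the first pair is 3T3-L1 cells with shKdm5ABC, short hairpin RNAs against Kdm5a, Kdm5b and Kdm5c, at day 0, and the second is 3T3-L1 cells with the control hairpin shLuc at day 2. The names may be out of order, and the column pair is read below in a second way, as knockdown and shLuc cells both at 4 hours. 3T3-L1 is an established mouse preadipocyte line. Both groups had been exposed to lentivirus and polybrene for 24 hours, beginning 4 days before induction, so the control also carries a hairpin. Day 0 is the confluent culture before induction. Day 2 follows induction with dexamethasone, insulin, 3-isobutyl-1-methylxanthine (IBMX) and fetal bovine serum, and 4 hours lies within that induction. Chromatin was fixed with DSG and formaldehyde and precipitated with the ab8580 antibody in every H3K4me3 library. As labelled, hairpin and day differ at once and their parts in a difference cannot be told apart. The replicates are numbered as experiments, and nothing says that they were separate cultures, so the p-values measure only the spread between these samples. All cells come from 1 line, and the hairpins act on 3 genes together.

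Trimethylation of lysine 4 of histone H3 marks the start sites of active genes, where methyltransferases of the SET1 and MLL complexes deposit it. KDM5 proteins are demethylases that remove the methyl groups from this lysine, and they are found at many of the same promoters. When 3T3-L1 cells become adipocytes, CEBPA and PPARG take over from early glucocorticoid- and cAMP-driven factors and switch on the genes of lipid storage.

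The RNA libraries of the same labels showed the knockdown. Kdm5c had log2 levels (tags per kb) of 7.05 and 6.77 in shKdm5ABC cells at day 0 and of 8.29 and 8.49 in shLuc cells at day 2, and fell by 1.48 (SE 0.18, limma with Benjamini-Hochberg adjustment over all genes, adjusted p 6.27e-05). At 4 hours its levels were 6.97 and 6.52 with the knockdown and 7.98 and 8.18 without, a fall by 1.33 (SE 0.18, adjusted p 0.0111). Kdm5a fell under both readings, by 0.80 from shLuc day 2 to knockdown day 0 and by 0.78 at 4 hours (SE 0.13 in each, adjusted p 4.44e-04 and 0.0216). Kdm5b differed between the readings. Its level was 7.76 and 7.72 in the knockdown at day 0 and 7.57 and 7.58 in shLuc at day 2 (difference 0.17, SE 0.10, adjusted p 0.196). It fell by 0.73 at 4 hours (SE 0.10, adjusted p 0.0112). In shLuc cells at day 0 its level was 8.44 and 8.47, so within day 0 the knockdown was the lower, a difference that was not tested here.

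Promoters from the highest differences and, for contrast, from the lower means of smallest p, none of which was called, are shown by sequence. For the genes with 1 entry in the RefSeq promoter table (GRCm38.p6), the 250 bases before the start site are printed 5′ to 3′ on the strand of the gene, with CG dinucleotides in capitals, to show the CG content of each window. The first 4 belong to the 12 promoters with the highest difference, and their coordinates are those of GRCm38.p6, while peak coordinates elsewhere are mm9, the build of the submitters' processing notes.
Igfbp6 (chr15:102143936-102144185, strand +): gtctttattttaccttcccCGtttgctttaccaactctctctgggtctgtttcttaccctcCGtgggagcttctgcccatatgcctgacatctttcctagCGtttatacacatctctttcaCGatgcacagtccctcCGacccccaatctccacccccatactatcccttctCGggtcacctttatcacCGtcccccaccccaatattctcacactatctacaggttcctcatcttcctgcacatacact
Tnip1 (chr11:54962941-54963190, strand -): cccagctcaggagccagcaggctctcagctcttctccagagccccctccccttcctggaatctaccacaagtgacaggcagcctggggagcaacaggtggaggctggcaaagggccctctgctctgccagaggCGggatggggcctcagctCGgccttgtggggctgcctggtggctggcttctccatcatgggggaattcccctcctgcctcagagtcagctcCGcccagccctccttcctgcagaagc
Calml4 (chr9:62857854-62858103, strand +): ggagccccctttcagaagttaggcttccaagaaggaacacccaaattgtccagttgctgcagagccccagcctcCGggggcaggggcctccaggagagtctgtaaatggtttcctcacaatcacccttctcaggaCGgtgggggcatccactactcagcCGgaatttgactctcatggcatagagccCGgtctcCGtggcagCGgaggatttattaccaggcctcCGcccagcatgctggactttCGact
Ntn3 (chr17:24209388-24209637, strand -): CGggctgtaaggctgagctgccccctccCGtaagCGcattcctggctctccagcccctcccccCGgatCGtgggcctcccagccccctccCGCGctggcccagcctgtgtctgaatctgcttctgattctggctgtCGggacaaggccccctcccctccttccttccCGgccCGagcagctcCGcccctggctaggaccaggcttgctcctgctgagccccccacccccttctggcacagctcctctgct
The other 3 belong to the 6 promoters with a lower mean and the smallest p.
Ptcd3 (chr6:71908763-71909012, strand -): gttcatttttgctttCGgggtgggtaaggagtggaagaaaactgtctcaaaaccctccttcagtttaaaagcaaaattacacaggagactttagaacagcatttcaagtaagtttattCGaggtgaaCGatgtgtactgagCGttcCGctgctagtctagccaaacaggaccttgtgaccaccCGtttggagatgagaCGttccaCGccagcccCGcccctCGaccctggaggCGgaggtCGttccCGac
Scfd1 (chr12:51377263-51377512, strand +): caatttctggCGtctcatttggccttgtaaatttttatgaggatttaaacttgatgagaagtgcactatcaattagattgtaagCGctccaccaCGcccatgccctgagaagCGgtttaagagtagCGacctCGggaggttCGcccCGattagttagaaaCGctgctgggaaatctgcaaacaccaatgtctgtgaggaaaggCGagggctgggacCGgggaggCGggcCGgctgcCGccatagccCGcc
Med6 (chr12:81595009-81595258, strand -): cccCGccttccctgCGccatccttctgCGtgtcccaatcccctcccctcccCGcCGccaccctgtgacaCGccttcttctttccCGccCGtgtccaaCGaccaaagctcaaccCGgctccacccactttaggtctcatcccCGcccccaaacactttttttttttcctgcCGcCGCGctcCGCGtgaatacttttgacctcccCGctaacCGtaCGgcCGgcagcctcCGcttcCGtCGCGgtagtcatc
The 4 promoters with higher H3K4me3 held 7, 3, 8 and 11 CG dinucleotides in the order printed, and the 3 lower ones 13, 15 and 24. The median of all 32851 entries was 6 over the same 250 bases. The letters CCGCCC, searched on both strands, were present in Tnip1, Calml4, Ntn3, Ptcd3 and Med6 and in 32.7% of all entries. Among the 5890 genes with 1 entry and a H3K4me3 peak within 1000 bp, counted over 300 bases, 69.4% had CCGCCC. Their median was 22 CG dinucleotides, so all entries are a lower background than promoters with a peak. These matches describe the letters of this window only.

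H3K4me3 was higher in the columns labelled KDM5_KD_D0 over most of the table. The mean was higher at 9236 of 10702 peaks (86.3%), and the median log2 difference was 0.29, a 1.22-fold difference. The medians of the 4 replicate-by-replicate differences lay between 0.26 and 0.33. By limma on log2(normalized tags + 1), with 1 fit over all 12 H3K4me3 libraries and Benjamini-Hochberg adjustment over all peaks, 3541 peaks were higher at adjusted p under 0.05 (33.1% of the peaks tested) and 4 were lower (0.0374%). Of the higher peaks, 1103 differed by over 1 on the log2 scale, 182 by over 2 and 20 by over 3. The libraries of the column pairs did not overlap at 6555 peaks in the higher direction (61.3%) and at 410 in the lower (3.83%). With the experiment number as a block, since same-numbered libraries deviated together, 6233 peaks were higher and 180 lower. Without the first KDM5_KD_D0 library 1760 peaks were called, and without the first Control_D2 library 1859.

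The median difference of the table moves with how the libraries are scaled. The deposited tags are scaled to the library total, and the 10702 peaks held 67.0% and 66.9% of that total in the Control_D2 columns against 83.2% and 80.7% in the KDM5_KD_D0 columns. Library totals were 9897030 and 13375500 tags in the former and 8410990 and 13588700 in the latter. When each library was centred on its own median, which took 0.28 off the median difference, 1060 peaks were higher (9.9%) and 96 lower (0.897%). edgeR with TMM factors called 1030 higher and 120 lower. The share of calls in the higher direction went from 99.9% to 91.7% with centring and to 89.6% with TMM factors. With DESeq2 it was 74.9% (1220 higher and 409 lower), and with block and centring together 57.7% (2990 and 2190). A difference that passed the test only without centring was not shown to exceed the median shift, and the called promoters named below that missed the threshold with centring are said to have done so.

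The higher values were concentrated in the weakest peaks. Ranked by their mean in the 8 H3K4me3 libraries outside the comparison, the lowest decile (median 63.7 tags) had a median log2 difference of 1.33, the next decile 0.72 and the third decile 0.32. The other deciles lay between 0.20 and 0.26. In the lowest decile, 58.5% of peaks were called higher, against 24.9% to 32.0% in the upper 7 deciles. The replicate-by-replicate medians of the lowest decile ran from 1.02 to 1.55, so its gap to the upper deciles, whose values stayed at or below 0.34, was larger than the spread between replicates. The plot of differences against level shows the called peaks over this range.

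**Figure D1:**
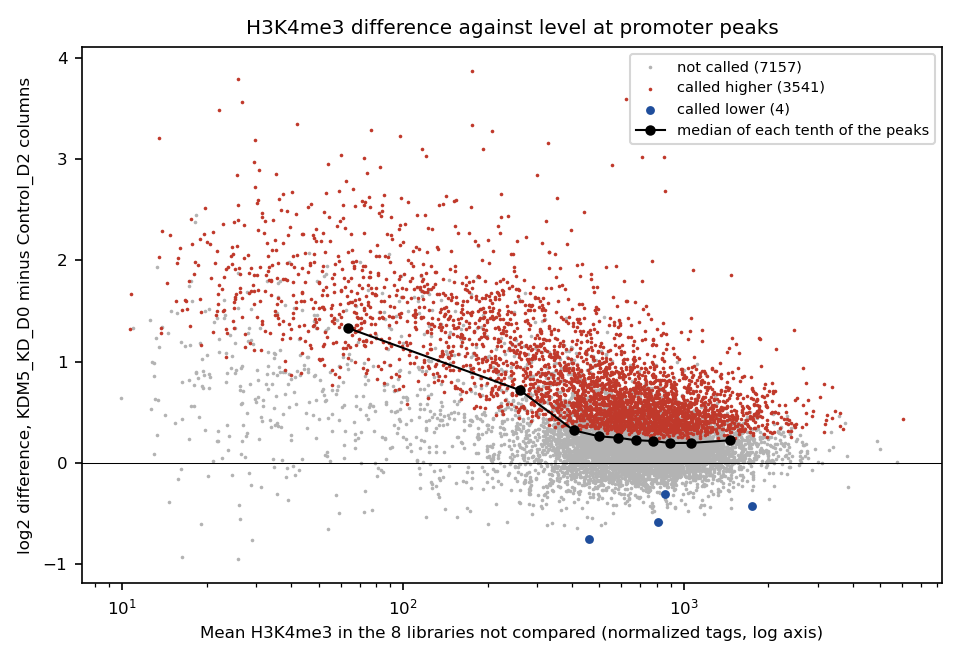
Each point is 1 of 10702 H3K4me3 promoter peaks, with its mean in the 8 libraries outside the comparison on the x axis (normalized tags, log axis) and the log2 difference between the KDM5_KD_D0 and Control_D2 columns on the y axis. Red points were called higher (3541) and blue points lower (4) by limma, and the black line joins the medians of deciles of the peaks, which fall from 1.33 in the lowest decile to about 0.20 in the upper ones.

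The 12 promoters with the highest difference were Apol9a, Fam198a, Gdpd2, Igfbp6, Tnip1, Mrvi1, Lrrn4cl, Speg, Calml4, Ntn3, Mir199a-1 and Angpt2, 7.81- to 10.1-fold higher (SE 0.17 to 0.52 on the log2 scale, largest adjusted p 0.00284). They were selected for this difference among called peaks within 1000 bp of a start site. Igfbp6, a binding protein that holds insulin-like growth factors away from their receptor, had 27.3 and 36.6 tags in the Control_D2 columns and 317 and 313 in the KDM5_KD_D0 columns (chr15:101974580-101976496 in mm9, log2 difference 3.28, SE 0.21, adjusted p 8.31e-05, centred difference 3.00). Mir199a-1 (chr9:21297490-21303463), a microRNA gene whose RNA values can hold reads of an overlapping transcript, was the strongest of the 12, with 151 and 150 tags against 1209 and 1243 (log2 difference 3.02, SE 0.17, adjusted p 2.81e-05). In both, the replicates of a column pair lay close together and far from the other pair.

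Lrrn4cl had 36.4 and 48.6 tags in Control_D2 and 339 and 398 in KDM5_KD_D0 (log2 difference 3.10, SE 0.29, adjusted p 3.69e-04). Tnip1, an inhibitor of NF-kB signalling, had 20.2 and 11.2 tags against 157 and 142 (3.22, SE 0.29, adjusted p 3.04e-04). Ntn3, a netrin family gene, had 37.4 and 34.4 tags against 307 and 291 (3.02, SE 0.33, adjusted p 5.65e-04). Speg, a muscle kinase gene, had 31.3 and 23.9 tags against 269 and 217 (3.10, SE 0.28, adjusted p 3.24e-04). The weakest of these promoters had few tags. Angpt2, encoding angiopoietin-2, had only 3.03 and 5.98 tags in Control_D2 and 40.4 and 40.5 in KDM5_KD_D0 (2.97, SE 0.52, adjusted p 0.00284). All 12 kept an adjusted p under 0.05 with centring.

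The other columns did not follow their names at these 12 promoters. The median of the 12 means was 38.5 tags in Control_D0, 236 in Control_4h and 21.7 in Control_D2, and 196 in KDM5_KD_D0, 19.5 in KDM5_KD_4h and 109 in KDM5_KD_D2. Control_4h, a column named for the control, was thus among the high ones and KDM5_KD_4h among the low ones, as the plot of the 12 promoters shows. The share of the common total within peaks was 66.9% and 65.6% in Control_D0, 80.5% and 81.3% in Control_4h, 68.1% and 66.2% in KDM5_KD_4h and 80.0% and 78.8% in KDM5_KD_D2, so it moved with these values. Its part in the differences was not tested.

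**Figure D2:**
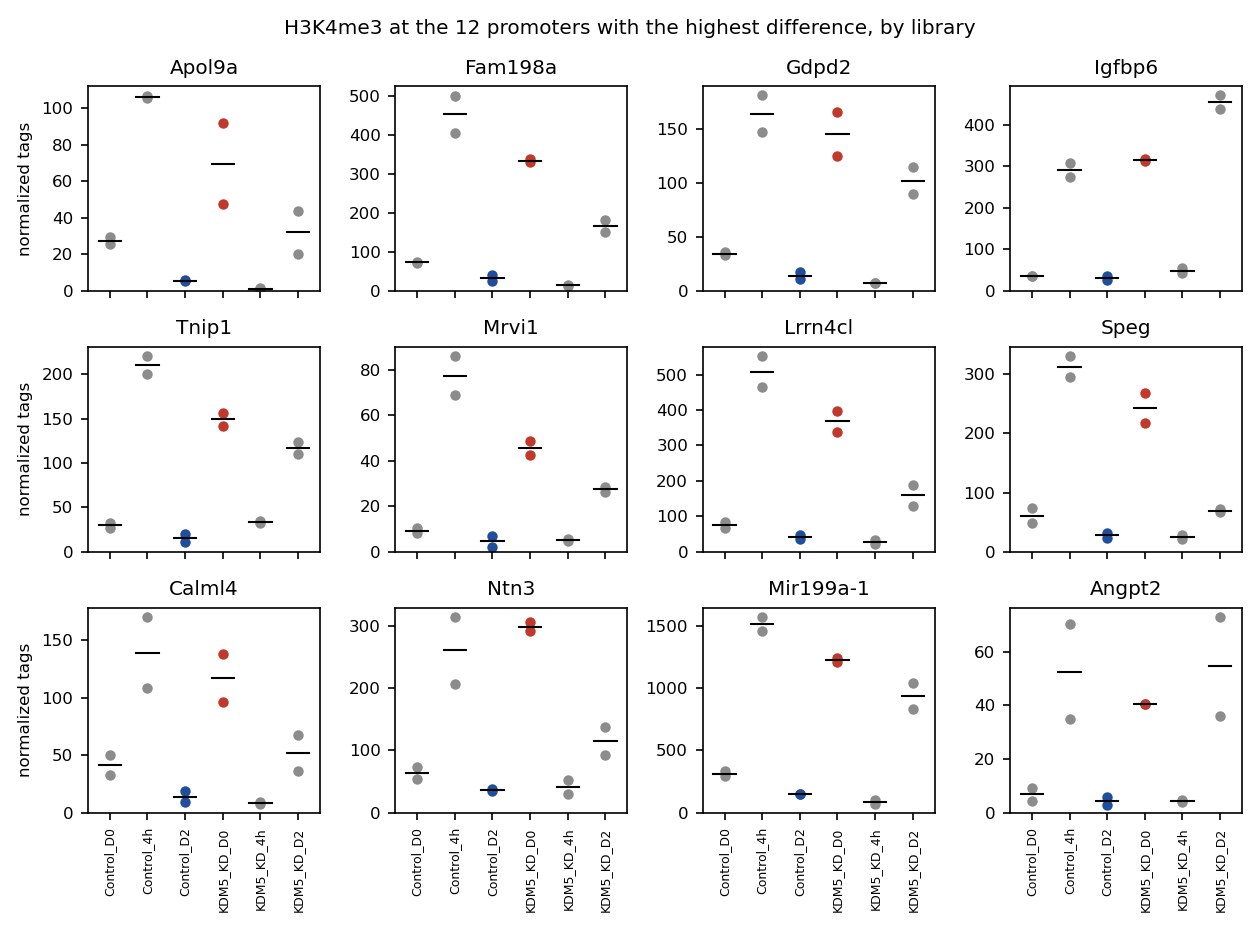
Each panel plots H3K4me3 normalized tags (y axis, from 0) in the 12 libraries at 1 of the 12 promoters with the highest difference, by column name (x axis). Points are libraries, black bars are the mean of 2, and the KDM5_KD_D0 (red) and Control_D2 (blue) libraries, which chose the promoters, do not overlap in any panel.

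Lsp1 (chr7:149656495-149665572), a gene for a leukocyte-specific actin-binding protein that was named after its values were seen, had a still larger difference. Its peak was centred 1885 bp before the annotated start site and was 9077 bp wide, wide enough to reach that site. It had 114 and 59.8 tags in Control_D2 and 1144 and 890 in KDM5_KD_D0 (12.1-fold, log2 difference 3.59, SE 0.30, adjusted p 2.23e-04).

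The peaks that fell were few and at well-marked promoters. No peak centred within 1000 bp of a start site was called lower. The 4 that were called were centred from 1318 to 1824 bp downstream of the annotated start, and are named after their values were seen. They were 3039 to 7025 bp wide, wide enough to reach the start site. Dnajb4 (chr3:151853860-151856899), a cochaperone of heat shock proteins, had 662 and 720 tags in the Control_D2 columns and 385 and 435 in the KDM5_KD_D0 columns (log2 difference -0.75, SE 0.21, adjusted p 0.0196). Xdh (chr17:74296101-74300308), xanthine dehydrogenase, had 1608 and 1483 tags against 1059 and 999 (-0.58, SE 0.20, adjusted p 0.0442). Gas5 (chr1:162963835-162969602), a noncoding RNA that hosts small nucleolar RNAs, had 1937 and 2106 against 1404 and 1611 (-0.43, SE 0.12, adjusted p 0.0254), and Uap1 (chr1:172099741-172106766), an enzyme of UDP-N-acetylglucosamine synthesis, had 1552 and 1495 against 1232 and 1230 (-0.31, SE 0.09, adjusted p 0.0270). The groups did not overlap at any of the 4. All 4 were also called with centring, but centring takes 0.28 off every difference. It makes a lower value lower still, so it is no check on these calls. Leaving out 1 library ended most of these calls: 3 lower peaks were called without the second KDM5_KD_D0 library and 0 without any one of the other 3 (unadjusted p under 0.05 in limma at 5 to 14 lower peaks).

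Within 1000 bp the 6 lower peaks with the smallest p missed the threshold. Scfd1, a vesicle trafficking gene, had 386 and 428 tags in Control_D2 and 287 and 312 in KDM5_KD_D0 (-0.44, SE 0.15, adjusted p 0.0506). Ptcd3, a mitochondrial ribosome gene, had 1133 and 1120 tags against 901 and 945 (-0.29, SE 0.11, adjusted p 0.0606). Med6, a Mediator subunit, had 349 and 387 against 215 and 275 (-0.59, SE 0.22, adjusted p 0.0633). The libraries of the pairs did not overlap at these 3 promoters. Each passed with centring (adjusted p 0.0187, 0.0122 and 0.0354), which moves every difference in the lower direction and so is no check on a lower value. With the experiment number as a block the adjusted p were 0.00565, 0.00540 and 0.00832. Zfp317, Rps20 and Ogt, which encodes the enzyme that adds N-acetylglucosamine to proteins, had adjusted p of 0.0674, 0.0676 and 0.0860. They too passed with centring (0.0401, 0.00982 and 0.0372) and with the block (0.00824, 0.0108 and 2.24e-04).

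The targeted genes themselves differed little in H3K4me3. Of the 4 KDM5 genes, 2 had a promoter peak. Kdm5b had 615 and 1087 tags in Control_D2 and 858 and 1211 in KDM5_KD_D0 (difference 0.32, SE 0.44, adjusted p 0.621), and the groups overlapped. With the block its adjusted p was 0.0252, and the library of the second experiment was the higher in both pairs. Kdm5c had 753 and 652 tags against 779 and 611 (-0.02, SE 0.22, adjusted p 0.956).

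For gene groups, 1 peak per gene was taken, the one nearest the start site. Over all 10355 genes with a peak, 3389 were called higher (32.7%) and the median log2 difference was 0.28, so a list is read against these values. The lists were drawn up with earlier results of these data known, and no test of a list as a whole was made. With the block 6023 genes were higher, and the counts rose by over 1.5 times, to 12 of 14 for preadipocyte receptors, 14 of 31 for immediate-early genes, 23 of 45 for DNA replication, 16 of 23 for the G1 list, 17 of 33 for interferon response and 11 of 20 for H3K4 enzymes.

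Adipogenic transcription factors had 13 of 20 promoters higher and a median difference of 0.65, and 7 of the 20 were also higher with centring. Pparg (chr6:115309910-115312698), the nuclear receptor that drives adipocyte differentiation, had 343 and 368 tags in the Control_D2 columns and 926 and 899 in the KDM5_KD_D0 columns (2.57-fold, log2 difference 1.36, SE 0.16, adjusted p 7.71e-04, centred difference 1.08). Rxra, its dimer partner, had 1190 and 1230 tags against 2202 and 1998 (0.79, SE 0.09, adjusted p 7.39e-04). Cebpa, named after its values were seen, had 356 and 439 against 950 and 1120 (1.38, SE 0.24, adjusted p 0.00262). At these promoters the columns named for shLuc at day 2 were the low ones, although mean RNA of all 3 genes was highest in shLuc at day 2 among the 6 groups. From shLuc day 2 to knockdown day 0, RNA of Pparg fell by 2.34, of Rxra by 1.39 and of Cebpa by 3.03 on the log2 scale (adjusted p 1.29e-04, 5.22e-05 and 2.79e-06). At 4 hours the RNA differences of Pparg, Rxra and Cebpa were 0.59, -0.02 and 0.29, none past the threshold (adjusted p 0.494, 0.990 and 0.684).

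Genes of adipocyte lipid storage and secretion had 10 of 20 promoters higher with a median of 0.36, and 2 were higher with centring. Plin4 (chr17:56246209-56250764), a lipid droplet coat protein, had 316 and 345 tags in Control_D2 and 1292 and 1192 in KDM5_KD_D0 (3.75-fold, log2 difference 1.91, SE 0.09, adjusted p 1.43e-05). Pnpla2, the triglyceride lipase ATGL, had 574 and 582 tags against 948 and 878 (0.66, SE 0.10, adjusted p 0.00170). Fabp4, the fatty acid carrier of adipocytes, named after its values were seen, had 49.5 and 36.6 against 79.7 and 127 (1.22, SE 0.33, adjusted p 0.0196), and missed the threshold with centring (adjusted p 0.103). RNA of Pnpla2 and Fabp4 fell by 4.26 and 4.01 from shLuc day 2 to knockdown day 0, opposite to H3K4me3, and differed by 0.15 and 0.71 at 4 hours (adjusted p 0.935 and 0.565). Plin4 RNA passed the threshold in neither reading, with differences of -0.31 (adjusted p 0.389) and, at 4 hours, 0.57 (adjusted p 0.450).

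Preadipocyte receptors and Wnt ligands had 6 of 14 promoters higher and a median of 0.68, and 3 were higher with centring. Sfrp2 (chr3:83568816-83571490), a secreted Wnt modulator, had 159 and 196 tags in Control_D2 and 534 and 507 in KDM5_KD_D0 (2.94-fold, log2 difference 1.56, SE 0.22, adjusted p 0.00131), and Notch1, a cell surface receptor, had 528 and 592 against 1120 and 1054 (0.96, SE 0.12, adjusted p 7.71e-04). Of 29 extracellular matrix promoters 10 were higher (median 0.34) and 3 with centring, among them Tnc, tenascin-C, with 187 and 190 tags against 442 and 401 (1.16, SE 0.16, adjusted p 0.00122), and Col12a1, a collagen, with a difference of 0.95 (SE 0.16, adjusted p 0.00219). RNA of Sfrp2, Tnc and Col12a1 was higher by 4.75, 1.12 and 3.69 in knockdown day 0 than in shLuc day 2 (adjusted p 6.77e-07, 0.00297 and 1.15e-06). Notch1 RNA went the other way, by -0.43 (adjusted p 0.0394). At 4 hours the RNA differences of Sfrp2, Tnc, Col12a1 and Notch1 were 0.15, 0.36, 0.22 and 0.31. None passed the threshold (adjusted p 0.895, 0.639, 0.788 and 0.445).

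Smooth muscle and contractile genes had 4 of 7 promoters higher (median 0.77). Tpm2 (chr4:43534490-43537656), a tropomyosin, had 172 and 198 tags in Control_D2 and 692 and 712 in KDM5_KD_D0 (3.79-fold, log2 difference 1.92, SE 0.20, adjusted p 5.03e-04), and Smtn, smoothelin, had 851 and 817 against 1485 and 1512 (0.84, SE 0.11, adjusted p 9.36e-04). The circadian clock list had 9 of 16 higher (median 0.54), with Hlf, a PAR bZIP factor, at 58.6 and 41.1 tags against 207 and 150 (1.82, SE 0.31, adjusted p 0.00255) and Rora, a nuclear receptor, at 489 and 520 against 898 and 896 (0.83, SE 0.15, adjusted p 0.00384). Rora missed the threshold with centring (adjusted p 0.0516). With centring, 3 of the 7 contractile and 2 of the 16 clock promoters were higher.

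Interferon-response promoters were higher at 10 of 33 genes, with a median of 0.23 that lay below the median of all genes, and at 5 with centring. Irf9, a subunit of the interferon-activated ISGF3 factor, had 201 and 213 tags in the Control_D2 columns and 496 and 539 in the KDM5_KD_D0 columns (1.32, SE 0.21, adjusted p 0.00186). Bst2, which encodes tetherin, had 561 and 609 against 1039 and 1069 (0.85, SE 0.12, adjusted p 0.00137). The median RNA difference of the list was 2.68 in the labelled reading and -0.99 at 4 hours, a description with no test. Irf9 RNA was 2.08 higher in knockdown day 0 than in shLuc day 2 (adjusted p 1.91e-05) and differed by -0.36 at 4 hours (adjusted p 0.543). Bst2 RNA was 2.33 higher in knockdown day 0 than in shLuc day 2 (adjusted p 5.09e-06) and fell by 1.19 with the knockdown at 4 hours (adjusted p 0.0185).

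Cell cycle promoters were higher at 22 of 44 genes of mitosis (median 0.32), 11 of 45 of DNA replication (0.25) and 8 of 23 of the G1 cyclin and E2F list (0.40). With centring the counts were 4, 2 and 0. Birc5, survivin, had 427 and 489 tags in Control_D2 and 811 and 857 in KDM5_KD_D0 (0.87, SE 0.10, adjusted p 7.06e-04). Cdt1, a replication licensing factor, had 616 and 650 against 1177 and 1141 (0.87, SE 0.09, adjusted p 4.37e-04), and E2f1 had 675 and 777 against 1072 and 1241 (0.67, SE 0.12, adjusted p 0.00323), which missed the threshold with centring (adjusted p 0.0698). RNA of Birc5 and Cdt1 moved the other way between knockdown day 0 and shLuc day 2, by -3.40 and -2.18 (adjusted p 7.73e-07 and 2.75e-06), and by -0.31 and 0.06 at 4 hours (adjusted p 0.549 and 0.945).

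The list of CDK inhibitors and p53 targets had 6 of 17 higher (median 0.19). Bbc3, the proapoptotic p53 target PUMA, had 981 and 1297 tags against 2370 and 2556 (1.12, SE 0.18, adjusted p 0.00185). Inflammatory genes had 8 of 18 higher (0.34), cholesterol synthesis 10 of 20 (0.30), glycolysis and hypoxia 8 of 23 (0.17), and the integrated stress response 6 of 24 (0.13). With centring 1, 1, 3 and 0 of these were higher, and 1 of the 17 CDK inhibitors and p53 targets. C3, complement component 3, had the most among the named inflammatory genes, with 45.5 and 25.4 tags against 152 and 194 (2.30, SE 0.30, adjusted p 9.59e-04). Immediate-early, cAMP and glucocorticoid response genes had 6 of 31 higher with a median of 0.17, and Egr2, an immediate-early zinc finger factor, had 893 and 899 tags against 1585 and 1392 (0.73, SE 0.09, adjusted p 8.99e-04). The enzymes that write or erase H3K4 methylation outside the KDM5 family had 6 of 20 higher (median 0.19), led by the methyltransferase Setd1b with 2311 and 2652 against 4158 and 4168 (0.75, SE 0.11, adjusted p 0.00137). With centring 1 of the 31 and 1 of the 20 were higher.

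The housekeeping lists held no called promoter. None of 25 promoters of oxidative phosphorylation, 23 of cytosolic ribosomal proteins and 15 of heat shock chaperones was called by limma, and 2, 2 and 3 had an unadjusted p under 0.05, all in the higher direction. Their medians were 0.03, -0.05 and 0.11. With centring, 1, 2 and 2 were lower, and edgeR with TMM factors gave the same counts. Cox4i1, a subunit of cytochrome c oxidase, had 1032 and 1107 tags in Control_D2 and 1229 and 1325 in KDM5_KD_D0 (0.26, SE 0.10, adjusted p 0.0706, centred difference -0.02). Rpl10a, a ribosomal protein, had 1598 and 1331 against 2021 and 1713 (0.35, SE 0.13, adjusted p 0.0557, centred 0.07), and the chaperone Hsp90ab1 had 1712 and 1665 against 2128 and 1772 (0.20, SE 0.10, adjusted p 0.170, centred -0.08). With the block these 3 passed (adjusted p 0.0126, 0.00126 and 0.0364), and 5, 3 and 6 promoters of the lists were higher and 1, 4 and 1 lower. The median level of the lists over the 8 other libraries was 862, 981 and 918 tags. In the quartile of all peaks with the highest level the median difference was 0.21, with 28.3% called higher.

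Markers of other cell types were mostly without a peak. Of 8 macrophage, 6 endothelial and 5 neuronal markers, 1, 1 and 2 had a peak. The sums ran from 396 to 397 tags in Control_D2 and 595 to 657 in KDM5_KD_D0 for the macrophage marker Cd14, 30.3 to 51.6 and 119 to 149 for the endothelial marker Egfl7, and 98.0 to 122 and 224 to 270 for the neuronal markers. The single muscle marker with a peak, of 5, had 156 to 178 and 168 to 191. Among longer lists of 13 macrophage, 10 endothelial, 10 neuronal and 21 germline genes, 1, 1, 2 and 1 had a peak, and those called higher were Cd14, Egfl7, Syn1 and the meiotic cohesin gene Stag3. With centring Cd14, Egfl7 and Syn1 missed the threshold (adjusted p 0.116, 0.0631 and 0.0755) and Stag3 passed (0.00471). Adipocyte markers with a peak (8 of 9) summed to 1991 to 2335 tags in Control_D2 and 3454 to 3633 in KDM5_KD_D0, and preadipocyte markers (5 of 6) to 4641 to 5126 and 6526 to 7619.

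The adipocyte markers stood against the label of the Control_D2 columns. In bulk samples such as these, fewer cells of a type and a lower level per cell cannot be told apart. RNA of 8 of the 9 markers was highest in shLuc cells at day 2, but none of the 8 with a H3K4me3 peak had its highest mean in the Control_D2 columns, and 5 had it in KDM5_KD_4h. The 6 genes with the largest excess of RNA in shLuc day 2 over shLuc day 0 and 4 hours, chosen on RNA alone, were Cidec, G0s2, Retn, Adipoq, Plin1 and Fam83a. Their H3K4me3 had a median of 17.9 tags in Control_D2 and 190 in KDM5_KD_4h, which was highest at 6 of 6. Cidec (chr6:113381106-113385550), a lipid droplet protein, had 36.4 and 23.2 tags in Control_D2, 30.9 and 42.0 in KDM5_KD_D0 and 350 and 389 in KDM5_KD_4h, while its mean RNA level on the log2 scale was 3.38 at shLuc day 0, 4.12 at 4 hours and 11.66 at day 2. Adipoq, adiponectin, had 24.2 and 10.5 tags in Control_D2 and 174 and 161 in KDM5_KD_4h. Both compared column pairs were low at these genes and overlapped at 5 of the 6.

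The 6 genes with the largest excess of RNA at 4 hours in shLuc cells, Fgl2, Vdr, Gprc5a, Ugdh, Thbd and Id2, were high in both compared column pairs. Control_D2 was the highest of the 6 column pairs at 3 of them and KDM5_KD_D0 at the other 3. Vdr (chr15:97734293-97739827), the vitamin D receptor, had 2881 and 2351 tags in Control_D2 and 2498 and 2077 in KDM5_KD_D0, against 466 and 503 in Control_D0, 931 and 839 in Control_4h, 549 and 612 in KDM5_KD_4h and 1397 and 1425 in KDM5_KD_D2. Its mean RNA level was 12.58 in shLuc and 12.39 in the knockdown at 4 hours, and 6.99 to 7.83 in the other groups. Thbd, thrombomodulin, had 1803 and 1427 tags in Control_D2 and 1722 and 1489 in KDM5_KD_D0, and at most 1368 in any other library. As labelled, neither of these column pairs is from 4 hours. Between them, none of the 6 genes was called (smallest adjusted p 0.168, at Ugdh, and 0.00934 for Ugdh with the block, lower in KDM5_KD_D0). With centring Ugdh was lower by the test (difference -0.48, adjusted p 0.0210), and Vdr missed the threshold (-0.47, adjusted p 0.0513).

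**Figure D3:**
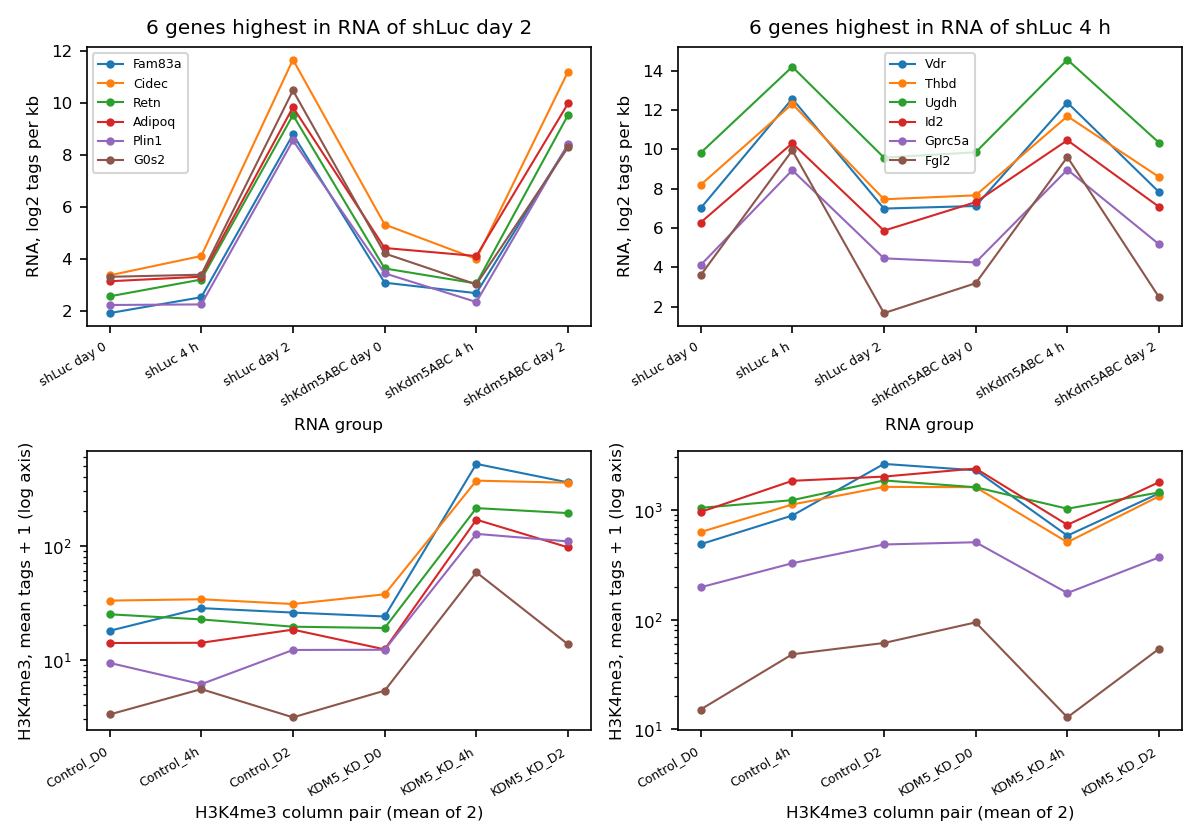
The upper panels plot mean RNA (log2 tags per kb) by RNA group and the lower panels mean H3K4me3 (tags + 1, log axis) by column pair, for the 6 genes highest in shLuc at day 2 (left) and the 6 highest in shLuc at 4 hours (right). H3K4me3 of the left-hand genes peaks in the column named KDM5_KD_4h, and that of the right-hand genes in Control_D2 or KDM5_KD_D0.

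Each column was also set against all RNA groups, as a description over 8863 genes with a tested transcript and a peak within 1000 bp. Values were taken relative to the mean of the 6 groups, so the correlations share libraries, and no p is given. The Control_D2 columns had Pearson r = 0.07 with RNA of shLuc day 2 and 0.44 with shLuc 4 hours, their highest. The KDM5_KD_D0 columns had r = 0.31 with RNA of knockdown day 0, their highest, and 0.25 with knockdown 4 hours. Over the 6 columns, the mean r was 0.13 with RNA of the same name and 0.46 when the columns were read in the order shLuc then knockdown at day 0, at 4 hours and at day 2, which makes the compared pair shLuc and knockdown at 4 hours. That order had itself been taken from the best match of the columns to RNA. Its higher mean r is therefore no separate support for it.

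**Figure D4:**
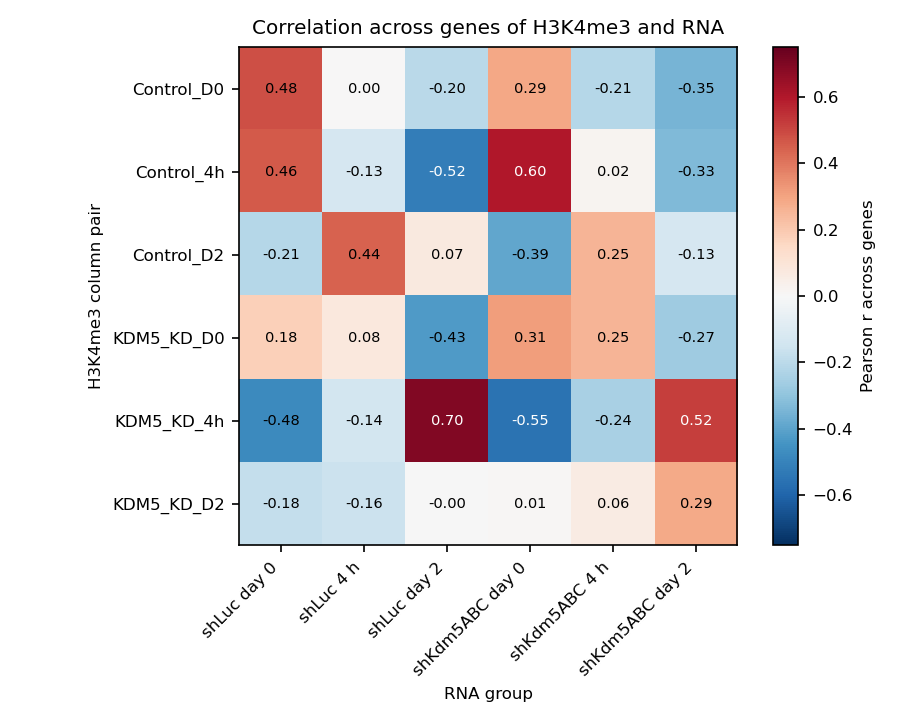
Pearson r across 8863 genes between each H3K4me3 column pair (rows) and each RNA group (columns), both relative to their mean over 6 groups, with color from blue (negative) to red (positive). The Control_D2 row is highest at shLuc 4 h (0.44) and the KDM5_KD_D0 row at shKdm5ABC day 0 (0.31).

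For the difference between the pairs, the labelled reading had the higher correlation. The H3K4me3 difference had r = 0.38 (Spearman rho 0.34) with RNA of knockdown day 0 minus shLuc day 2, the second highest of 30 ordered pairs of RNA groups, after knockdown day 2 minus shLuc day 2, which also rounds to 0.38. It had r = 0.30 (rho 0.17) with knockdown minus shLuc at 4 hours, the fourth highest. The RNA contrasts differ in size, with 7706 genes called by limma in the labelled reading and 195 at 4 hours. These values of r are therefore not on a like footing. The measures thus differ in which reading they place higher, and neither reading is settled by these files.

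RNA counts under the readings differ widely in their background. Between knockdown day 0 and shLuc day 2, limma called 7706 of 13534 genes (56.9%), 3955 of them higher (29.2%) and 3751 lower (27.7%). Between knockdown and shLuc at 4 hours it called 195 (1.44%), 108 of them higher (0.798%) and 87 lower (0.643%). With the block the counts were 9296 and 1310. The 4 hour count fell to between 11 and 36 without any one of its 4 libraries, and was 0 by limma on those 4 libraries alone (1342 genes at an unadjusted p under 0.05). Among 2699 genes whose promoter was called higher in H3K4me3, 46.5% had higher RNA in the labelled reading, against 29.8% of all 8863 genes, and 19.0% had lower RNA, against 29.6%. In the 4 hour reading 47 (1.74%) had higher RNA, against 0.598% of all, and 23 (0.852%) had lower RNA, against 0.756%. Those 47 were 88.7% of the genes with higher RNA, in a set of 2699 of the 8863 genes.

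Promoters that were higher by over 1 on the log2 scale (693 genes) had higher RNA at 63.2% in the labelled reading and at 5.19% (36 genes) at 4 hours, and lower RNA at 10.4% and 0.144%. Of the 12 highest promoters, RNA was called higher at 10 in the labelled reading and at 3, Lrrn4cl, Igfbp6 and Angpt2, at 4 hours. Angpt2 RNA was higher by 2.80 in knockdown day 0 than in shLuc day 2 (SE 0.33, adjusted p 5.18e-05) and by 3.46 in the knockdown at 4 hours (SE 0.33, adjusted p 0.00290). Igfbp6 RNA differed by 0.22 in the labelled reading (SE 0.24, adjusted p 0.458) and was 1.67 higher at 4 hours (SE 0.24, adjusted p 0.0118). Lsp1 RNA was higher in both, by 3.43 and 2.21 (adjusted p 1.15e-04 and 0.0478).

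The compared columns were also set against the other 4 column pairs in the same fit. The KDM5_KD_D0 columns differed from Control_4h at 10 of the 10702 peaks and from KDM5_KD_D2 at 37, but from Control_D0, the shLuc columns of the same labelled day, at 3520 and from KDM5_KD_4h at 3851. With the block the counts against Control_4h and KDM5_KD_D2 were 265 and 1871, and those against Control_D0 and KDM5_KD_4h were 6470 and 6276. With centring they were 10 and 34, and 1140 and 3445. The Control_D2 columns differed from Control_D0 at 211 peaks and from KDM5_KD_4h at 960, but from Control_4h at 3457 and from KDM5_KD_D2 at 2571. With the block these were 1651, 3121, 6419 and 5683. With centring they were 213, 1026, 1491 and 832, so the count against KDM5_KD_D2 was then below that against KDM5_KD_4h. These comparisons share libraries and are given as counts only.

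The difference was larger where KDM5A was low. KDM5A tags came from its own libraries, which carry no hairpin in the labels, and 10317 of the 10702 peaks (96.4%) overlapped a KDM5A peak. The quartile of promoters with the lowest KDM5A tags at day 2 (median 45.7) had a median H3K4me3 difference of 0.87, and the following quartiles 0.30, 0.22 and 0.15. The 385 promoters without a KDM5A peak had a median of 1.31, against 0.28 for the others. Because weak H3K4me3 peaks also had little KDM5A, the comparison was repeated within quartiles of H3K4me3 level. In the lowest level quartile the medians went from 1.36 at the lowest KDM5A to 1.15, 0.72 and 0.28 at the highest, and in the highest level quartile from 0.25 to 0.15. In the lowest level quartile the replicate-by-replicate ranges of the extremes, 1.08 to 1.61 and 0.24 to 0.32, did not overlap; in the highest they did. The 12 highest promoters had a median of 16.1 KDM5A tags against 218 over all peaks, and 3 of them, Fam198a, Mrvi1 and Angpt2, had no KDM5A peak. All peaks in the lowest decile of H3K4me3 level had a median of 11.8 KDM5A tags, and those in the next decile 71.9. Low KDM5A is thus shared by weak peaks and not particular to the 12.

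KDM5C, mapped at day 2, overlapped 2336 promoters, which differed by a median of 0.30 against 0.28 elsewhere. Within quartiles of level, promoters with a KDM5C peak had a median of 0.72 against 0.87 in the lowest quartile and 0.25 against 0.19 in the highest. The replicate ranges overlapped in both cases. In the second quartile the medians were 0.31 and 0.25, and the ranges, 0.30 to 0.38 and 0.23 to 0.28, did not overlap. In the next they were 0.27 and 0.20, with overlapping ranges.

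Wider peaks had a larger difference within the upper 3 level quartiles. There the median difference went from 0.17, 0.14 and 0.15 in the narrowest peaks to 0.42, 0.33 and 0.32 in the widest, with no overlap of the replicate ranges. In the lowest level quartile the narrowest had 0.93 and the widest 0.97. Their median levels were 44.5 and 284 tags, so width and level cannot be told apart in that quartile. The plot by KDM5A and width gives all of these median differences. By position, 222 peaks centred over 1000 bp upstream of a start site had a median of 0.80, and 3919 peaks within 250 bp had 0.26. The former were weak peaks, with a median of 197 tags over the 8 other libraries against 604.

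**Figure D5:**
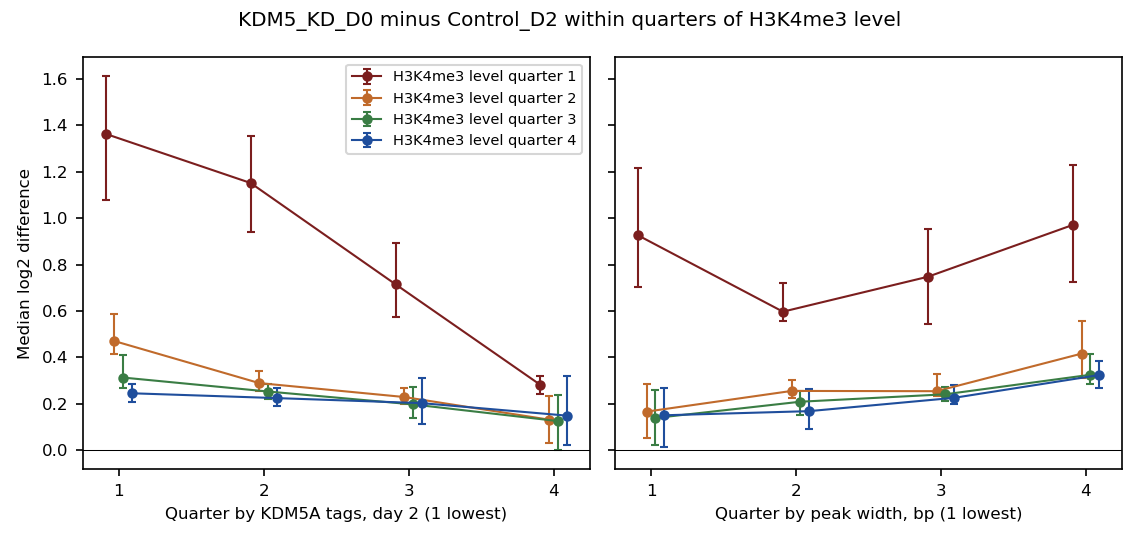
Median log2 difference between the KDM5_KD_D0 and Control_D2 columns (y axis) by quartile of KDM5A tags (left) or peak width (right), with 1 line for each quartile of H3K4me3 level in the 8 other libraries. Bars span the 4 replicate-by-replicate medians. In the weakest quartile the median falls from 1.36 to 0.28 with KDM5A, while the median level rises from 52.3 to 348 tags.

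CG content was examined at 5890 genes with a single entry in the RefSeq promoter table and a peak within 1000 bp, over all 300 bases of an entry (250 before and 50 after the start). Their median was 22 CG dinucleotides, against 7 in all entries. Quartiles by CG count had median differences of 0.29, 0.22, 0.26 and 0.26. Within the weakest quartile of H3K4me3 level the medians were 0.67, 0.54, 0.72 and 1.04 from the fewest to the most CG, and within the strongest 0.19, 0.15, 0.18 and 0.20. CCGCCC on either strand was present in 69.4% of these promoters and in 35.7% of all entries, and promoters with and without it had medians of 0.27 and 0.22. By chromosome the median difference lay between 0.18 on chromosome X (353 peaks) and 0.37 on chromosome 19 (385 peaks).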

How the data were processed

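H3K4me3, KDM5A and KDM5C values are deposited as signal, tags in merged peaks scaled by the authors to a common library total. RNA values are deposited as log2 of normalized tags per kb, per the name of the table, and the distance to the start site is deposited in bp. The submitters' processing notes name mm9 and the tools STAR, HOMER, Subread, DESeq2 and Bowtie2, the last with version 0.12.8; other settings are not given in the sources used here. In every ChIP column, dividing by the smallest step gave whole reads (tolerance 0.1, 100% of values), and H3K4me3 library totals of 8374550 to 13588700 tags. Reads were used for edgeR 4.0.16 and DESeq2 1.42.0 alternatives only, and RNA depth is unknown.

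Columns were joined to samples by name, and no column of values was left unused (0). H3K4me3 was fitted as log2(tags + 1) with limma 3.58.1 in R 4.3.3 over 12 libraries (mean-variance trend, two-sided, 6 residual degrees of freedom). A fold is on this scale, so it understates changes of weak peaks. RNA was fitted likewise for 13534 transcripts with a log2 value of at least 1 in at least 2 libraries. SE is that of the fitted difference. The fits were tested on simulated data. Same-numbered libraries deviated together, with correlations across peaks of 0.504 to 0.790 over the 15 pairs of H3K4me3 groups (0.736 for the compared pair) and 0.381 to 0.657 for RNA, so counts are also given with the number as a block. Promoter sequences are RefSeq's for GRCm38.p6, and of the 18 highest and lower named promoters 7 had a single entry.

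The comparison, the 25 gene lists (621 symbols, 469 with a peak) and the rules were chosen with earlier results of these data known. Named genes are the KDM5 genes, the 12 highest and, since none was called lower within 1000 bp, the 6 lower peaks of smallest p (mean of at least 20 tags), up to 2 called genes per list in each direction or the strongest peak where none was called, and 6 genes for each of 2 times chosen on RNA. Alternatives were pseudocount, filter, scaling, test, block and leaving out each library.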

Additional observations from a re-analysis of the deposited data

How the results depend on the processing

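Depth limits the weakest promoters, where a library holds a few reads, and 2 libraries a group limit the precision of all values. Centring, TMM factors and DESeq2's size factors set the median near 0 by construction, so they say nothing of the direction of a common shift: the median log2 difference of 0.29 became 0.011 with each library centred (with or without the replicate block), -0.010 with edgeR and TMM factors and -0.024 with DESeq2. Called peaks (3545, with 3541 higher and 4 lower) became 1156 (1060 and 96) with centring, 6413 (6233 and 180) with the replicate block, 1150 (1030 and 120) with edgeR and TMM factors and 1629 (1220 and 409) with DESeq2. Lower peaks were 22 with only the 4 compared libraries and 2190 (with 2990 higher) with block and centring together. Leaving out 1 of the 4 libraries left 1760 to 2485 called peaks, 1760 to 2485 higher and 0 to 3 lower. A pseudocount of 8, a mean of at least 20 tags, no mean-variance trend and edgeR with library totals kept all 3 counts within 1.5 times. RNA calls at 4 hours (195) were 1310 with the replicate block, 0 by limma on the 4 compared libraries (1342 at an unadjusted p under 0.05) and 11 to 36 without any one library. The correlation with RNA was 0.363 without a filter on RNA, 0.343 as Spearman's rho and 0.356 to 0.363 without 1 library for the labelled reading, and 0.173 as rho and 0.268 to 0.308 without 1 library for the 4 hour reading. By deciles in place of quartiles, the medians were 0.72 in the narrowest and 0.35 in the widest peaks, 1.32 at the lowest KDM5A and 1.33 at the lowest level. The RNA alternatives, edgeR with library totals, block with centring and the parts by level were chosen after seeing the data. Where no value above shows a cause, the cause was not tested.

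No promoter called in the report reversed. With centring (the same with the replicate block added), edgeR with TMM factors and DESeq2, in this order, Hsp90ab1 had -0.075, -0.091 and -0.11, Cox4i1 -0.022, -0.041 and -0.053, Id2 -0.036, -0.052 and -0.065, Gprc5a -0.20, -0.23 and -0.24, Retn -0.25, -0.32 and -0.34 (-0.018 with edgeR and library totals) and Plin1 -0.23, -0.25 and -0.27. Kdm5b had -0.011 with edgeR and TMM factors and -0.024 with DESeq2. Without 1 library the values ran from -0.093 to 0.73 for Kdm5b, -0.20 to 0.15 for Kdm5c, -0.17 to 0.17 for Thbd, -0.52 to 0.45 for Fam83a, -0.064 to 0.21 for Gprc5a, -0.014 to 0.61 for Cidec, -0.41 to 0.47 for Retn, -1.05 to 0.089 for Adipoq and -0.31 to 0.41 for Plin1. None of these reversed values passed its test.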
